A study of Homo sapiens with 16 samples.

Results

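The 10 genes ASNS, PHGDH, PSAT1, PSPH, SHMT2, MTHFD2, ALDH18A1, PYCR1, CBS and CTH encode enzymes that build serine, glycine, one-carbon units, asparagine, proline and cysteine. They were picked by gene name, with earlier results of these data known, and they are 10 of 39576 gene names in the deposited tables. All 10 were among the 15285 genes tested. Expression was read in A549, a human lung adenocarcinoma line, made to overexpress CD63-Nluc, in which the vesicle protein CD63 is joined to a luciferase. These cells received the compound 5G6, 6D7 or 7F8, known here only by code name, or the solvent DMSO, for 48 h or 4 h. The labels give 4 µM for each of the 4 treatments, also for DMSO. The 8 groups had 2 biological replicates apiece according to the series description. All 16 polyA RNA libraries came from the CD63-Nluc line, so A549 cells without it are not covered. The series title names exosome release and the AMPK and SREBP regulators of energy and lipid metabolism.

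PHGDH, PSAT1 and PSPH make serine from the glycolytic intermediate 3-phosphoglycerate in consecutive steps. SHMT2 then splits serine into glycine and a folate-bound one-carbon unit in mitochondria, which MTHFD2 oxidises on the way to formate for purine and thymidylate synthesis. ASNS makes asparagine from aspartate and glutamine, ALDH18A1 and PYCR1 catalyse the first and last steps of proline synthesis from glutamate, and CBS and CTH pass the sulfur of homocysteine to serine to give cysteine. Many of these genes are known targets of ATF4, the transcription factor of the amino acid response and of the integrated stress response, and lung cancer lines differ widely in how much of the serine pathway they express.

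The ASNS promoter holds the element through which ATF4 is known to act on this gene, and it is printed here with the stretches before PHGDH and PSAT1, because all 3 genes fell with 7F8 at 48 h. Sequences are 5′ to 3′ on the strand of the gene, from RefSeq with build GRCh38.p14. The ASNS sequence is the 250 bases before its start at chr7:97872409-97872658 (minus strand). The PHGDH and PSAT1 sequences run from 250 bases before the RefSeq start to the gene start of the deposited tables, 112 bases at chr1:119711684-119711795 and 200 bases at chr9:78296875-78297074 (both plus strand). Capitals mark a match to TGATGNAA, searched on both strands.
ASNS: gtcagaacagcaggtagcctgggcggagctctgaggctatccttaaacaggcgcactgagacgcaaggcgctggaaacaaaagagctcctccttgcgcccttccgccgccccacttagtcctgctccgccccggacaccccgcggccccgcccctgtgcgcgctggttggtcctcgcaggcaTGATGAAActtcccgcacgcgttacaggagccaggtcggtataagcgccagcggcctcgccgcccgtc
PHGDH: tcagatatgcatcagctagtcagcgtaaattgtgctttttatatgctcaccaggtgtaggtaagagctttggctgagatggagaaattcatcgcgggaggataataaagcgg
PSAT1: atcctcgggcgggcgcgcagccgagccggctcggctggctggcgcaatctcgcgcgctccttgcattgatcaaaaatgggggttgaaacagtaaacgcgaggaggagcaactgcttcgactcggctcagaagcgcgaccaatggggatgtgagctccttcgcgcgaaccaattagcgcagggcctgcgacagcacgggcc

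The ASNS match, TGATGAAA, lies 68 to 61 bases before the RefSeq start. RefSeq promoters were matched for 7 of the 10 genes, 10 promoters in all, and only this promoter of ASNS held the motif in its 250 upstream bases. Of all 35116 RefSeq promoters of that length, 1104 held it, or 3.14 percent. A match is a description of letters, and no match says only that these letters were not in that window.

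Expression is given as deposited TPM, a length-corrected share of each library's transcripts, so fewer transcripts per cell and fewer expressing cells cannot be told apart. The libraries held 6.10 to 8.86 gigabases of aligned sequence, worked out from FPKM and coverage, and 13013 to 14568 genes with at least 1 TPM. Of 9 markers of A549, KRT7, KRT8, KRT18, AKR1B10, AKR1C2 and ALDH1A1 reached at least 486.7 TPM in every library, while EPCAM ran from 0.254 to 8.33 TPM. CDKN2A, which is deleted in A549, was listed at 0 in all 16. Markers of leukocytes and endothelium and the fibroblast gene COL3A1 did not exceed 0.399 TPM, and COL1A1 ran from 2.27 to 14.4 TPM. The mitochondrial tRNA gene TRNC took at least 153234 TPM in 14 libraries, and both 6D7 libraries of 48 h listed it at 0. Those 6D7 libraries listed TRNY, another mitochondrial tRNA gene, at 5984 and 4738 TPM, while the other 14 listed TRNY at 0. Chromosome M took 6.13 and 6.48 percent of TPM in them, against 18.9 to 32.5 percent in the other 14. The cause was not tested. TPM sums to a fixed total, so values after median-of-ratios scaling, which centres the typical gene, are given beside the TPM results at 48 h that they move most. Tests were limma on log2(TPM + 1) over all 16 libraries, with the Benjamini-Hochberg (BH) adjustment over all genes of a comparison, and called means an adjusted p below 0.05. These p-values measure only the spread between these samples.

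The first question was which of these enzymes 7F8 changed after 48 h. PHGDH, PSAT1, SHMT2, MTHFD2, ASNS, PYCR1 and CBS fell, 7 of the 10 enzymes, with members from each of the 5 pathways. PSPH, ALDH18A1 and CTH did not pass the test. Of all genes tested, 8.49 percent were called in either direction and 6.4 percent were called lower. The median log2 fold change was -1.43 over the 10 enzymes, against -0.21 over all genes, and -1.25 against 0.00 after median-of-ratios scaling. Summed TPM of the 10 enzymes was 140.3 and 214 with 7F8, against 448 and 496 with DMSO.

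In the serine pathway PHGDH, which commits glucose carbon to serine, had 2.19 and 6.56 TPM with 7F8, against 29.6 and 30.1 TPM with DMSO. The 7F8 mean was 14.7 percent of the DMSO mean, with a log2 fold change of -2.65 ± 0.35 (SE, limma BH-adjusted p = 0.00326). Both 7F8 libraries lay far below both DMSO libraries, and the first 7F8 library was the lowest of all 16. PSAT1, the transaminase of the second step, had 24.5 and 39.97 TPM with 7F8, against 106.9 and 124 TPM with DMSO (log2 fold change -1.85 ± 0.33, limma BH-adjusted p = 0.00989). PSPH, the phosphatase that releases serine, had 10.7 and 14.1 TPM with 7F8, against 18.1 and 30.0 TPM with DMSO. Its groups did not overlap either, but its log2 fold change of -0.87 ± 0.36 was not called (limma BH-adjusted p = 0.154).

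The mitochondrial one-carbon enzymes had smaller log2 fold changes than PHGDH, a difference between genes that was not tested. SHMT2 had 28.9 and 58.7 TPM with 7F8, against 85.2 and 93.9 TPM with DMSO (log2 fold change -1.10 ± 0.26, limma BH-adjusted p = 0.0272). MTHFD2 had 25.5 and 38.4 TPM with 7F8, against 74.8 and 76.5 TPM with DMSO (log2 fold change -1.25 ± 0.35, limma BH-adjusted p = 0.0479). For both genes the higher 7F8 library was still below the lower DMSO library. SHMT2 overlaps the antisense gene NDUFA4L2 (0 to 6.15 TPM) and MTHFD2 overlaps SLC4A5 (0.165 to 1.29 TPM), and strandedness of the libraries was not stated.

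ASNS had 4.04 and 6.88 TPM with 7F8, against 27.5 and 28.6 TPM with DMSO. That is 19.5 percent of the DMSO mean, a log2 fold change of -2.20 ± 0.26 (limma BH-adjusted p = 0.00213). The readthrough gene CZ1P-ASNS overlaps ASNS on the same strand and was listed at 5.24 to 13.02 TPM, so reads of the pair may have been split.

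In proline synthesis the closing enzyme fell and the opening one was not called. PYCR1, which reduces pyrroline-5-carboxylate to proline, had 10.97 and 17.1 TPM with 7F8, against 60.3 and 62.8 TPM with DMSO (log2 fold change -2.09 ± 0.23, limma BH-adjusted p = 0.00173). ALDH18A1, which makes pyrroline-5-carboxylate from glutamate, had 31.3 and 28.9 TPM with 7F8, against 40.1 and 43.3 TPM with DMSO (log2 fold change -0.46 ± 0.27, limma BH-adjusted p = 0.322). Its 95 percent interval ran from -1.04 to 0.13.

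CBS and CTH had the lowest TPM of the 10 genes in DMSO. CBS, which joins homocysteine and serine, had 0.356 and 1.32 TPM with 7F8, against 4.40 and 4.45 TPM with DMSO (log2 fold change -1.61 ± 0.43, limma BH-adjusted p = 0.0397). The deposited tables also list CBSL, a near-identical entry at another place on chromosome 21 of the reference. Reads of CBS may have been split between these entries. CBSL had 0.379 and 0.990 TPM with 7F8, against 3.34 and 3.19 TPM with DMSO. With both entries added the log2 fold change was -1.86 (limma BH-adjusted p = 0.0284). CTH, which releases cysteine, had 1.84 and 1.64 TPM with 7F8, against 1.08 and 2.26 TPM with DMSO, and the groups overlapped (log2 fold change 0.07, limma BH-adjusted p = 0.936).

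**Figure D1:**
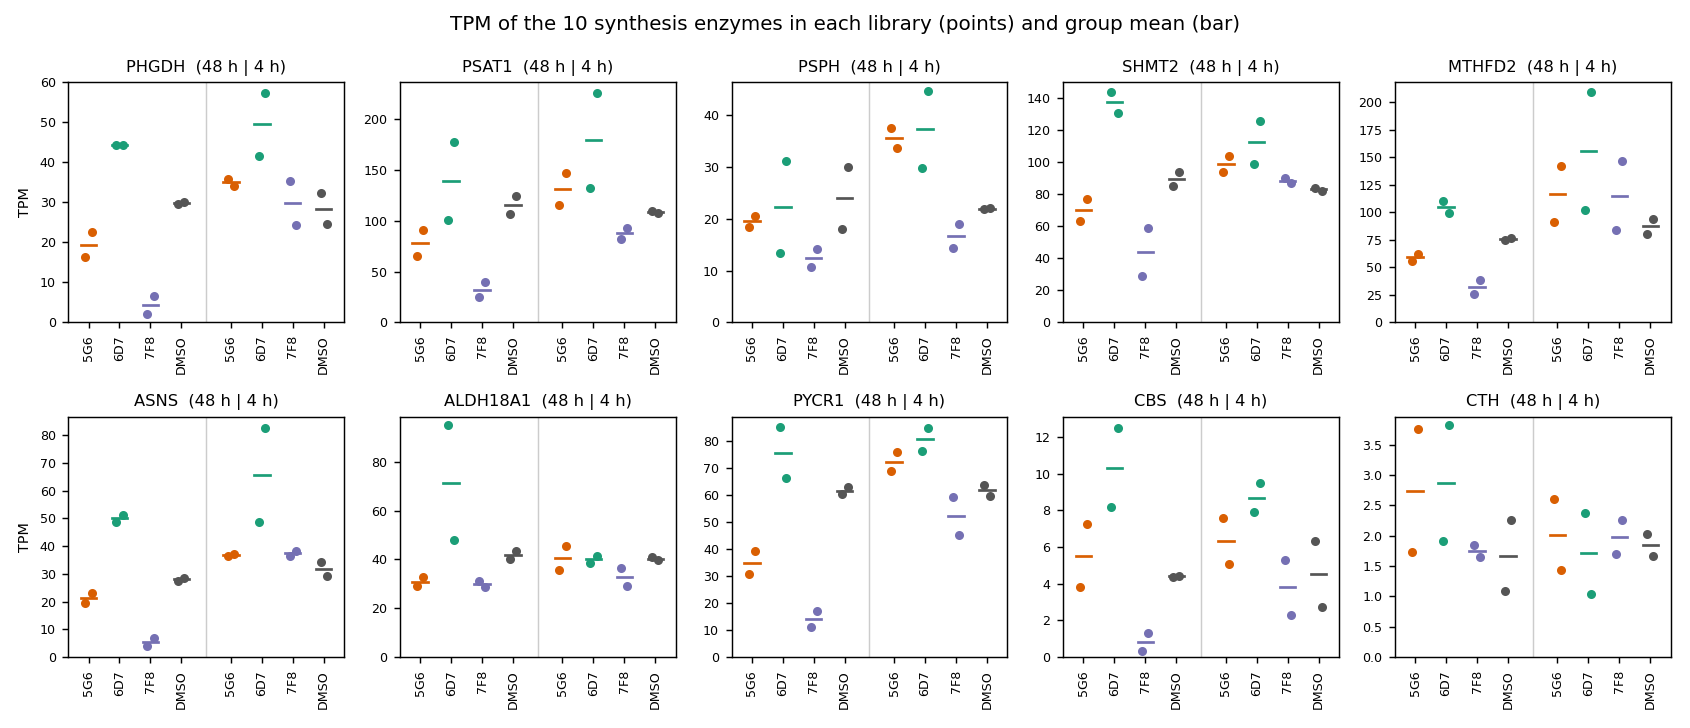
TPM of each of the 10 enzymes (y axis, linear, from 0) in every library, with 5G6, 6D7, 7F8 and DMSO at 48 h on the left of each panel and at 4 h on the right. Points are the 2 libraries of a group and the bar is their mean. In PHGDH both 7F8 libraries at 48 h, 2.19 and 6.56 TPM, lie below every other library.

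All enzymes but CTH, 9 of the 10, had both 7F8 libraries below both DMSO libraries at 48 h, as did 41.1 percent of all genes tested. After median-of-ratios scaling limma called 4 of the 10, namely PHGDH, PSAT1, ASNS and PYCR1, where 3.79 percent of all genes were called lower. SHMT2 (adjusted p = 0.0530), CBS (0.0501) and MTHFD2 (0.0897) then missed the threshold. Leaving out DMSO replicate 1, DMSO replicate 2 or 7F8 replicate 1 left the 3 calls of PHGDH, ASNS and PYCR1, and leaving out 7F8 replicate 2 left 6, without MTHFD2. All genes called numbered 34, 297, 43 and 875 in that order, against 1297 with every library.

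With 6D7 at 48 h none of the 10 enzymes was called by limma, while 12.4 percent of all genes were. Unadjusted p was below 0.05 for SHMT2, ASNS, ALDH18A1 and CBS, 4 of the 10, and for 0 of the 10 after median-of-ratios scaling. Of the 15285 genes tested it was below 0.05 in 4480, and in 3392 after scaling. ASNS had 48.6 and 51.4 TPM with 6D7, against 27.5 and 28.6 TPM with DMSO (log2 fold change 0.81 ± 0.26, limma BH-adjusted p = 0.0603, or 0.48 after median-of-ratios scaling). PHGDH had 44.4 and 44.3 TPM with 6D7, against 29.6 and 30.1 TPM with DMSO (log2 fold change 0.56 ± 0.35, limma BH-adjusted p = 0.315, or 0.23 after scaling). In both genes the 6D7 libraries were close to each other and above both DMSO libraries.

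Both 6D7 libraries lay above both DMSO libraries at 48 h in 7 of the 10 (PHGDH, SHMT2, MTHFD2, ASNS, ALDH18A1, PYCR1 and CBS), as in 45.2 percent of all genes. After median-of-ratios scaling it was 4 of the 10 (PHGDH, SHMT2, ASNS and CBS), against 25.2 percent of all genes. SHMT2 had 144 and 130.4 TPM with 6D7, against 85.2 and 93.9 TPM with DMSO (log2 fold change 0.61, limma BH-adjusted p = 0.149, or 0.27 after scaling). CBS had 8.18 and 12.5 TPM with 6D7, against 4.40 and 4.45 TPM with DMSO (log2 fold change 1.04, limma BH-adjusted p = 0.130, or 0.73 after scaling). Replicates were far apart in other members. ALDH18A1 had 94.9 and 47.8 TPM with 6D7, against 40.1 and 43.3 TPM with DMSO, and PSPH had 13.3 and 31.1 TPM with 6D7, against 18.1 and 30.0 TPM with DMSO. The median over the 10 enzymes was 0.54, against 0.29 over all genes, and 0.25 against 0.01 after median-of-ratios scaling. PSAT1 and PYCR1 changed sign with that scaling, to -0.12 and -0.05.

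With 5G6 at 48 h limma called 0 of the 10 enzymes and 3.38 percent of all genes. Unadjusted p was below 0.05 in 2769 of the 15285 genes tested and in 1 of the 10 enzymes. That enzyme was PYCR1, with 30.6 and 39.2 TPM with 5G6, against 60.3 and 62.8 TPM with DMSO (log2 fold change -0.81 ± 0.23, limma BH-adjusted p = 0.0811). ASNS had 19.4 and 23.3 TPM with 5G6, against 27.5 and 28.6 TPM with DMSO (log2 fold change -0.38, limma BH-adjusted p = 0.486). PHGDH had 16.4 and 22.6 TPM with 5G6, against 29.6 and 30.1 TPM with DMSO (log2 fold change -0.61, limma BH-adjusted p = 0.396).

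Both 5G6 libraries were below both DMSO libraries in 7 of the 10 enzymes (PHGDH, PSAT1, SHMT2, MTHFD2, ASNS, ALDH18A1 and PYCR1), as in 27.9 percent of all genes. CBS and CTH had log2 fold changes above 0, of 0.22 and 0.46, and overlapped DMSO. The median over the 10 enzymes was -0.37, against -0.07 over all genes, and -0.28 against 0.00 after median-of-ratios scaling. Summed TPM of the 10 was 304 and 379 with 5G6, against 448 and 496 with DMSO.

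**Figure D2:**
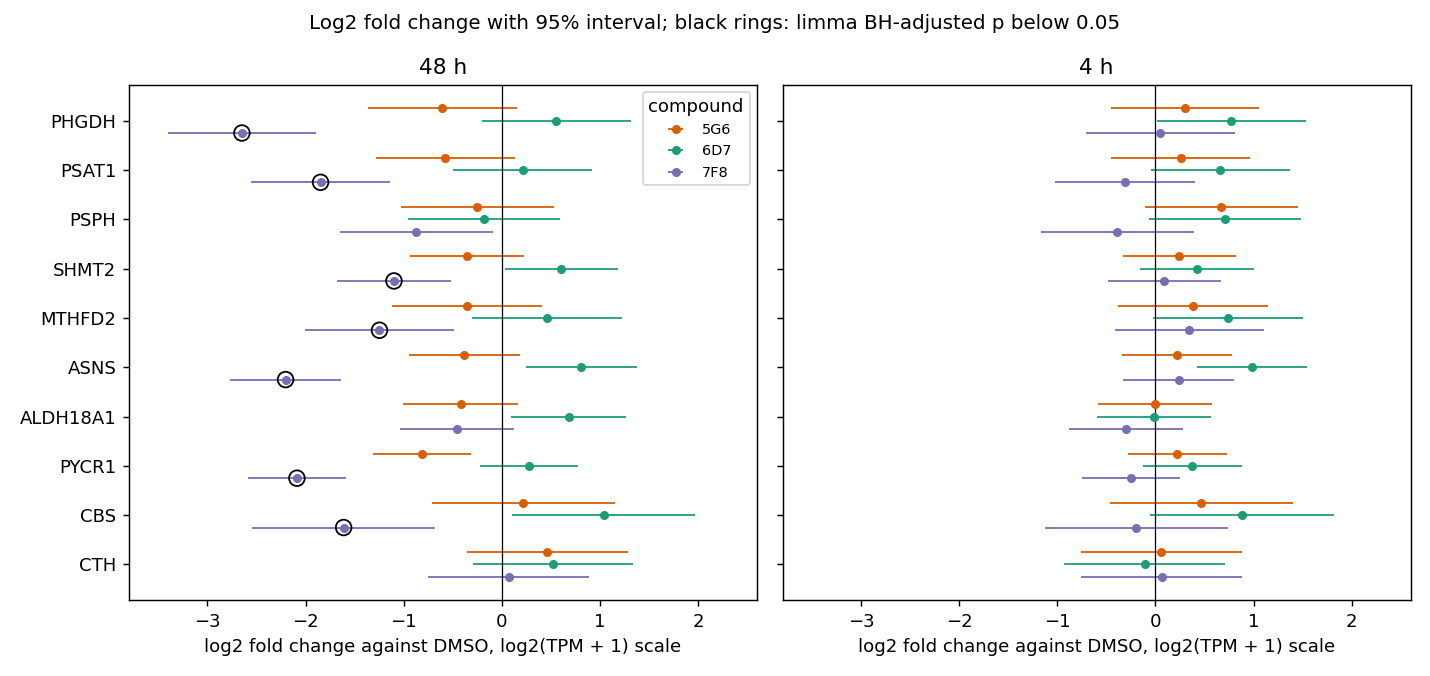
Log2 fold change against DMSO of the same hour on the log2(TPM + 1) scale (x axis) for each enzyme (y axis), at 48 h on the left and 4 h on the right, with 95 percent intervals and colours for the 3 compounds. Black rings mark limma BH-adjusted p below 0.05, which 7 enzymes reached with 7F8 at 48 h, PHGDH lowest at -2.65.

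Set side by side at 48 h, the mean TPM of PHGDH, PSAT1, SHMT2, MTHFD2, ASNS, ALDH18A1 and PYCR1 followed the order 6D7, DMSO, 5G6, 7F8, although after median-of-ratios scaling 6D7 stood below DMSO in PSAT1 and PYCR1 and 5G6 below 7F8 in ALDH18A1. Neighbours in that order did not overlap on TPM in PHGDH, SHMT2, MTHFD2, ASNS and PYCR1, but after scaling the 6D7 and DMSO libraries overlapped in MTHFD2, ALDH18A1 and PYCR1. On TPM the 6D7 and DMSO libraries overlapped in PSAT1, and those of 5G6 and 7F8 did in ALDH18A1. The share of all genes in this order was not worked out, so it is not read as particular to the enzymes. Taken singly on TPM, both 6D7 libraries lay above both DMSO libraries in 45.2 percent of all genes. Both 5G6 libraries lay below them in 27.9 percent, and both 7F8 libraries in 41.1 percent. The comparisons with DMSO share the same DMSO libraries, so the compounds were also tested against each other at the same hour and printed dose. The structures of the compounds were not given.

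The widest separation was between 6D7 and 7F8 at 48 h. ASNS had 48.6 and 51.4 TPM with 6D7, against 4.04 and 6.88 TPM with 7F8 (log2 difference 3.02 ± 0.26, limma BH-adjusted p = 0.000274). All but PSPH and CTH, 8 of the 10 enzymes, were higher with 6D7, where 16.5 percent of all genes were called and 16.3 percent called higher. After median-of-ratios scaling 5 of the 10 were called higher (PHGDH, PSAT1, ASNS, PYCR1 and CBS), against 0.334 percent of all genes. Without 7F8 replicate 1 several calls on TPM were lost, among them PSAT1 and CBS. Whether calls over all genes were lost alike is not given here. PHGDH differed by 3.21 ± 0.35 (adjusted p = 0.00151) and PYCR1 by 2.37 ± 0.23 (adjusted p = 0.000686) on the log2 scale in the limma test. After median-of-ratios scaling the differences were smaller, at 2.46 for ASNS, 2.67 for PHGDH and 1.79 for PYCR1.

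Between 5G6 and 7F8 at 48 h limma called 3 of the 10 enzymes, all higher with 5G6, where 0.34 percent of all genes were called and 0.314 percent called higher. ASNS had 19.4 and 23.3 TPM with 5G6, against 4.04 and 6.88 TPM with 7F8 (log2 difference 1.82 ± 0.26, limma BH-adjusted p = 0.0263). PHGDH differed by 2.04 ± 0.35 (adjusted p = 0.0455) and PYCR1 by 1.28 ± 0.23 (adjusted p = 0.0470). Only ASNS was called after median-of-ratios scaling (adjusted p = 0.0368), where 0.111 percent of all genes were called higher. No enzyme was called when 5G6 replicate 1, 5G6 replicate 2 or 7F8 replicate 1 was left out. ALDH18A1 gave a difference of 0.04, with an interval of -0.55 to 0.62.

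Between 5G6 and 6D7 at 48 h limma called 0 of the 10 enzymes and 0.0196 percent of all genes. Unadjusted p was below 0.05 in 2946 of 15285 genes tested (323 after median-of-ratios scaling) and in 7 of 10 enzymes (5 after scaling). The differences were all below 0 on TPM, from -1.20 for ASNS (interval -1.76 to -0.63, limma BH-adjusted p = 0.197) to -0.06 for CTH (interval -0.88 to 0.76). The unadjusted intervals of these 7, PHGDH, PSAT1, SHMT2, MTHFD2, ASNS, ALDH18A1 and PYCR1, lay wholly below 0, so a missed threshold does not show that these compounds act alike. The ASNS difference was -0.78 after median-of-ratios scaling. Without 6D7 replicate 2 limma called 2 enzymes, both lower with 5G6, while all genes called then numbered 639 (611 of them lower), against 3 with every library.

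**Figure D3:**
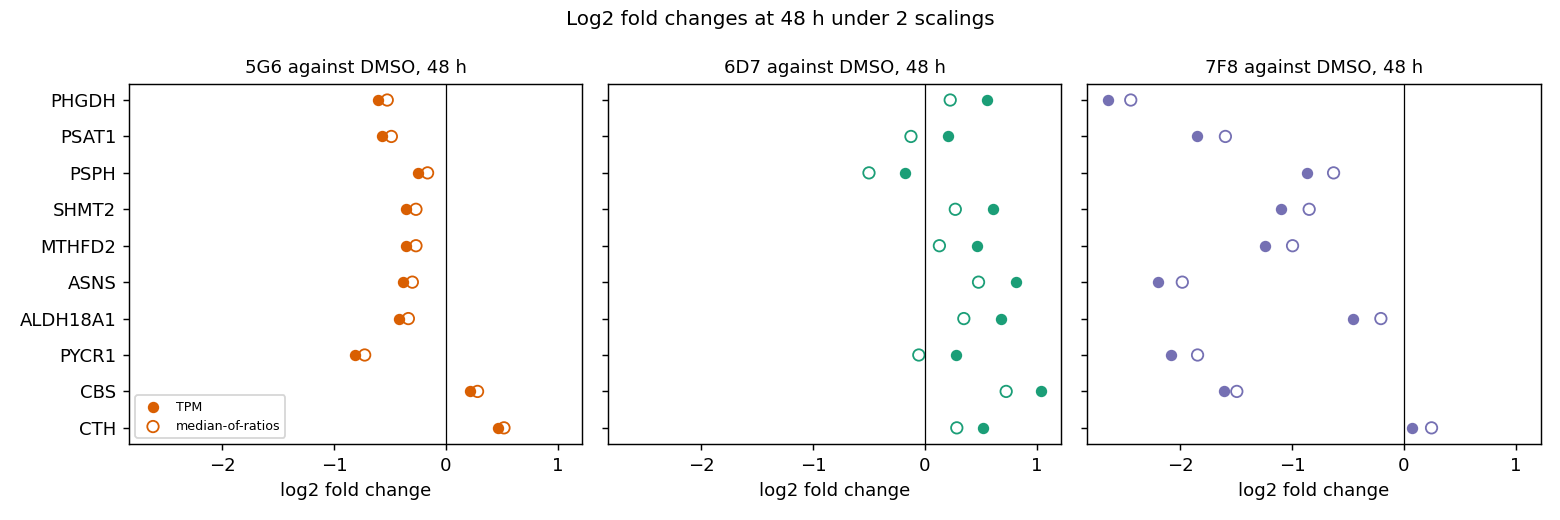
Log2 fold changes against DMSO at 48 h (x axis) of the 10 enzymes (y axis) for 5G6, 6D7 and 7F8, on TPM (filled) and after median-of-ratios scaling (open). The shift is towards lower values with 6D7, where PYCR1 goes to -0.05, and towards higher values with 7F8, where ASNS goes to -1.98.

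At 4 h limma called none of the 10 enzymes with any compound. The percentage of all genes called was 0.0196 with 5G6, 0 with 6D7 and 0 with 7F8. The 6D7 group had the highest mean of the 4 treatments in 8 of the enzymes, all but ALDH18A1 and CTH. The share of all genes with their highest mean in 6D7 was not worked out. Its ASNS libraries had 48.7 and 82.6 TPM, against 34.1 and 29.2 TPM with DMSO (log2 fold change 0.98 ± 0.26, limma BH-adjusted p = 1). PSAT1 had 132 and 226 TPM with 6D7, against 109.6 and 107.9 TPM with DMSO (log2 fold change 0.66, limma BH-adjusted p = 1). MTHFD2 had 101.8 and 209 TPM with 6D7, against 80.2 and 93.9 TPM with DMSO (log2 fold change 0.74, limma BH-adjusted p = 1). The second 6D7 library stood well above the first in all 3 of these genes.

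At 4 h both 6D7 libraries exceeded both DMSO libraries in 8 of the 10, as in 16.1 percent of all genes. Unadjusted p was below 0.05 in 2 of the 10 (PHGDH and ASNS) and in 180 of the 15285 genes tested. The median over the 10 was 0.69, against 0.04 over all genes, and 0.63 against -0.01 after median-of-ratios scaling. Summed TPM of the 10 was 578 and 881 with 6D7, against 475 and 463 with DMSO. With 5G6, 6 of the 10 had both libraries above both DMSO libraries, where 26.9 percent of all genes did, and after scaling it was 3 of the 10, against 15 percent. The 5G6 median was 0.25, against 0.13 over all genes, and 0.08 against -0.01 after median-of-ratios scaling. With 5G6, 0 of the 10 and 597 of the 15285 genes tested had an unadjusted p below 0.05. ASNS had 36.6 and 37.3 TPM with 5G6, against 34.1 and 29.2 TPM with DMSO.

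With 7F8 at 4 h the enzymes were divided, with 5 log2 fold changes above 0 and 5 below. Their median was -0.07, against -0.10 over all genes. Unadjusted p was below 0.05 in 0 of the 10 and in 743 of the 15285 genes tested. PHGDH had 35.3 and 24.2 TPM with 7F8, against 32.3 and 24.6 TPM with DMSO, and the groups overlapped. ASNS had 36.6 and 38.3 TPM with 7F8, against 34.1 and 29.2 TPM with DMSO (log2 fold change 0.24, limma BH-adjusted p = 1). PYCR1 had 59.1 and 45.0 TPM with 7F8, against 63.6 and 59.6 TPM with DMSO (log2 fold change -0.25, limma BH-adjusted p = 1). None of the enzymes was called between compounds at 4 h, where the percentage of all genes called was 0 for 5G6 against 6D7, 0.0131 for 5G6 against 7F8 and 0 for 6D7 against 7F8. Unadjusted p was below 0.05 in 1, 1 and 5 of the 10 in that order, and in 177, 1794 and 935 of the 15285 genes tested.

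Whether the response differed between 48 h and 4 h was tested as the log2 fold change at 48 h minus that at 4 h. For 7F8 limma called 0 of the 10 enzymes and 0.00654 percent of all genes. Unadjusted p was below 0.05 in 1284 of the 15285 genes tested and in 7 of the 10 enzymes. Of these 7, ASNS gave the smallest p, with a difference of -2.44 ± 0.37 (interval -3.24 to -1.64, limma BH-adjusted p = 0.0979). PHGDH gave -2.70 ± 0.49 and PYCR1 gave -1.84 ± 0.32 (limma BH-adjusted p = 0.180 for both). No difference between 48 h and 4 h was thus called for the 10 enzymes by this test, which does not show that the responses were alike. Without 7F8 replicate 2 of 48 h, 3 enzymes were called, and 21 of all genes against 1 with every library.

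The median difference between the times over the 10 enzymes was -0.67 with 5G6 and -0.14 with 6D7, against -1.48 with 7F8. Over all genes it was -0.22, 0.25 and -0.11 in that order. In PSPH, ALDH18A1 and CTH the difference was smallest in size with 7F8, at -0.48, -0.15 and 0.01. For 5G6 limma called 0 of the 10 enzymes and 0 percent of all genes, with PYCR1 at -1.04 (limma BH-adjusted p = 0.531) the 1 enzyme with an unadjusted p below 0.05. For 6D7 it called 0 of the 10 and 0.0393 percent of all genes, and 0 had an unadjusted p below 0.05. DMSO at 48 h against DMSO at 4 h gave 0 of the 10 and 0 percent of all genes. None of the 10 had an unadjusted p below 0.05, and their log2 fold changes ran from -0.20 for MTHFD2 to 0.11 for SHMT2. Of the 15285 genes tested, 1150, 1661 and 250 had an unadjusted p below 0.05 for 5G6, 6D7 and DMSO in that order.

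ATF4 and its known targets DDIT3 and TRIB3 were read beside the enzymes at 48 h. ATF4 had 880 and 582 TPM with 6D7, against 287 and 259 TPM with DMSO, and it rose (log2 fold change 1.39 ± 0.23, limma BH-adjusted p = 0.00481, adjusted p = 0.0346 after median-of-ratios scaling). ATF4 had 378 and 405 TPM with 5G6, against 287 and 259 TPM with DMSO (log2 fold change 0.52, limma BH-adjusted p = 0.245). ATF4 had 174 and 182 TPM with 7F8, against the same DMSO libraries (log2 fold change -0.61 ± 0.23, limma BH-adjusted p = 0.117, or -0.35 after median-of-ratios scaling). ATF4 is controlled largely through its translation, which TPM does not measure.

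TRIB3, a pseudokinase that ATF4 and DDIT3 induce, had 511 and 508 TPM with 5G6, 427 and 604 TPM with 6D7 and 86.9 and 60.8 TPM with 7F8, against 58.8 and 83.7 TPM with DMSO. It rose with 5G6 (log2 fold change 2.84 ± 0.37, limma BH-adjusted p = 0.00463) and with 6D7 (2.84 ± 0.37, adjusted p = 0.00173), and it overlapped DMSO with 7F8 (0.05, adjusted p = 0.953). DDIT3, the stress factor also called CHOP, had 90.9 and 71.9 TPM with 5G6, 130.8 and 116 TPM with 6D7 and 44.1 and 24.5 TPM with 7F8, against 22.6 and 20.8 TPM with DMSO. None of its changes was called (limma BH-adjusted p = 0.247, 0.0656 and 0.701 in that order). With 5G6, TRIB3 was called higher. PHGDH, ASNS and PYCR1 were not called, and both their libraries lay below both DMSO libraries, as in 27.9 percent of all genes. CBS and CTH overlapped DMSO, with log2 fold changes of 0.22 and 0.46. A link between TRIB3 and the enzymes was not tested.

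**Figure D4:**
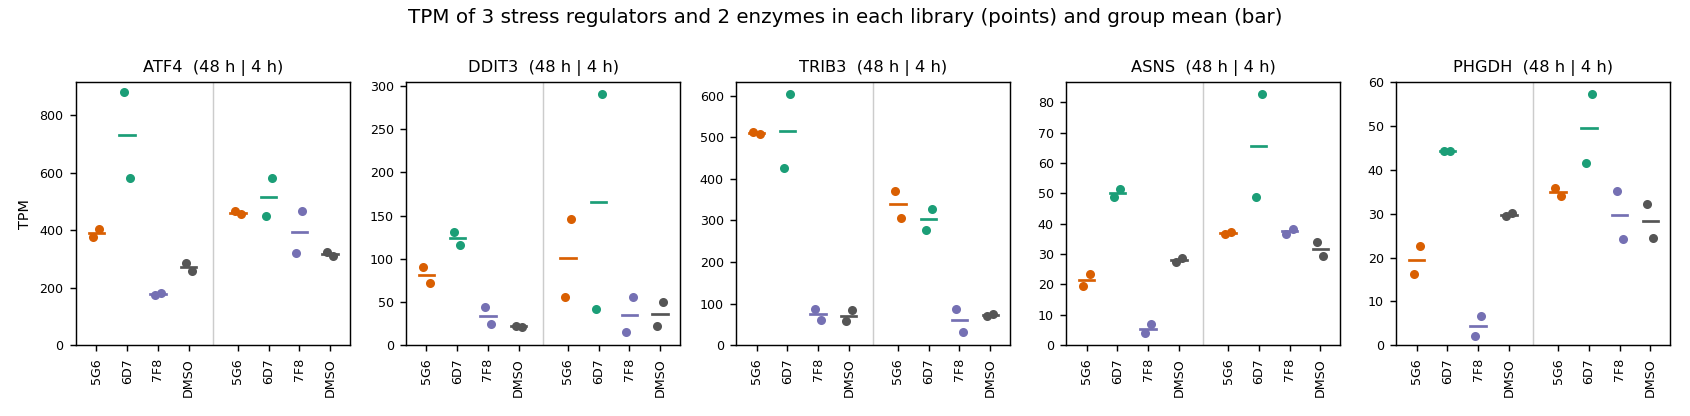
TPM (y axis, linear, from 0) of the regulators ATF4, DDIT3 and TRIB3 and the enzymes ASNS and PHGDH in every library, with 5G6, 6D7, 7F8 and DMSO at 48 h left and at 4 h right in each panel. Points are libraries and bars are group means. TRIB3 at 48 h is at 508 to 511 TPM with 5G6. ASNS, which was not called with 5G6, is at 19.4 to 23.3 TPM, below both DMSO libraries.

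Genes of neighbouring pathways were read from 8 lists of 86 genes, of which 81 were tested and none is one of the 10 enzymes. Against DMSO at 48 h, 5G6 had 3 of the 81 called higher and 2 lower, 6D7 had 21 higher and 2 lower, and 7F8 had 3 higher and 6 lower. Of all genes, 1.87 percent were called higher and 1.51 percent lower with 5G6, 10.9 and 1.52 percent with 6D7, and 2.08 and 6.4 percent with 7F8. After median-of-ratios scaling the 81 had 6 called higher and 3 lower with 5G6, 9 and 5 with 6D7, and 5 and 4 with 7F8. Of 15285 genes tested, limma then called 373 higher and 221 lower with 5G6, 466 and 489 with 6D7, and 558 and 579 with 7F8. At 4 h limma called 0 of the 81 with each compound. With 7F8 at 48 h the list of serine and glycine metabolism had 0 of 9 called and a median of -0.12, and the methionine cycle had 0 of 7 and a median of -0.42, against -0.21 over all genes.

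The folate list had 0 higher and 3 lower of 13 with 7F8, with a median of -0.44. TYMS, which makes thymidylate, had 4.78 and 21.8 TPM with 7F8, against 70.0 and 80.8 TPM with DMSO (log2 fold change -2.73, limma BH-adjusted p = 0.0246). SLC19A1, the reduced folate carrier, also fell (log2 fold change -1.09, limma BH-adjusted p = 0.0309, and 0.0531 after median-of-ratios scaling).

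With 7F8 the cysteine and glutathione list had 2 higher and 1 lower of 10. SQOR, which oxidises hydrogen sulfide in mitochondria, had 315 and 285 TPM with 7F8, against 88.1 and 110.7 TPM with DMSO (log2 fold change 1.59, limma BH-adjusted p = 0.00727). ETHE1, the persulfide dioxygenase that acts after it, rose by 1.15 (adjusted p = 0.0104), and the glutathione-degrading enzyme CHAC2 fell by 1.46 on the log2 scale (adjusted p = 0.0243). In the aspartate and asparagine list 1 of 9 was lower, the asparaginase ASRGL1 (log2 fold change -1.54, limma BH-adjusted p = 0.0182), which fell with 5G6 and 6D7 too (adjusted p = 0.0453 and 0.0214). SLC1A5, a glutamine importer, was the 1 of 12 amino acid transporters called with 7F8 (log2 fold change -0.83, limma BH-adjusted p = 0.0267, and 0.110 after median-of-ratios scaling). The proline and ornithine list had 0 of 6 called on TPM (median 0.00) and 2 higher after median-of-ratios scaling (median 0.24).

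With 6D7 at 48 h, enzymes beside the 10 rose in several lists. ALDH1L2, the mitochondrial enzyme that oxidises formyl-tetrahydrofolate, had 10.8 and 10.3 TPM with 6D7, against 2.30 and 3.79 TPM with DMSO (log2 fold change 1.53, limma BH-adjusted p = 0.0104, and 0.0233 after median-of-ratios scaling). The prolyl hydroxylase P4HA2 had 115.7 and 82.5 TPM with 6D7, against 18.5 and 32.1 TPM with DMSO (log2 fold change 1.96, limma BH-adjusted p = 0.00340). CHAC1, which degrades glutathione and is a known ATF4 target, had 22.8 and 18.0 TPM with 6D7, against 3.78 and 2.95 TPM with DMSO (log2 fold change 2.29, limma BH-adjusted p = 0.0127), and it rose with 5G6 too (1.94, adjusted p = 0.0478). The list of ATF4 branch regulators had 8 of 15 higher with 6D7 (3 after median-of-ratios scaling), 2 with 5G6 and 1 with 7F8, where 10.9, 1.87 and 2.08 percent of all genes were called higher in that order, or 3.05 percent with 6D7 after scaling.

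The genes most like ASNS over the 16 libraries were looked for by the mean absolute difference of centred log2(TPM + 1) profiles among 9951 genes with a mean of at least 5 TPM. The nearest was PHGDH at 0.17, followed by PYCR1 at 0.27, PSAT1 at 0.31, MTHFD2 at 0.33 and GARS, a glycine tRNA synthetase, at 0.35. The same 5 genes came in the same order after median-of-ratios scaling. The points share libraries and treatments, so this is a description. For PSPH the nearest of the other 9 enzymes was PSAT1 at 0.32, and for SHMT2 and ALDH18A1 it was each other at 0.26. CTH was farthest from its nearest enzyme, at 0.41.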

How the data were processed

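RNA of 16 libraries, 8 groups with 2 libraries each, was read from 1 gene abundance table per library. The submitters' processing notes name STAR 2.6.1a, featureCounts 1.6.3, StringTie 2.0 and GRCh38, without their roles. TPM and FPKM values were computed by the authors before deposit, per the file headers, and mean gene coverage was deposited with them. How isoforms were combined into a gene's TPM is not given in the sources used here. FPKM was 5.31 times coverage in the median library for PHGDH and 1.03 times for PSAT1, nearly the same in all libraries. This limits comparison of levels between genes. The ratio ran from 1.42 to 1.84 for CBS, 1.975 to 2.575 for CTH and 1.12 to 1.31 for MTHFD2. For these genes comparison between libraries is limited too. On coverage CBS was not called with 7F8 against DMSO at 48 h (limma BH-adjusted p = 0.0901). No read counts were used, so depth is given in aligned gigabases.

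TPM of rows with 1 gene name was added. Genes with at least 1 TPM in at least 2 libraries, 15285, were fitted as log2(TPM + 1) with limma 3.58.1 in R 4.3.3, as 8 group means with 8 residual degrees of freedom and a variance trend. The scale understates change in weakly expressed genes. The 16 two-sided comparisons were each adjusted by Benjamini-Hochberg over all genes. Size factors for median-of-ratios scaling were 0.819 to 1.38. The procedure was tested on simulated data. Python 3.11.15 with numpy 2.4.6 and pandas 2.3.3 read the tables, and matplotlib 3.10.9 drew the figures.

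The 10 enzymes and the 8 neighbouring lists (serine and glycine, folate, methionine, cysteine and glutathione, proline and ornithine, aspartate and asparagine, amino acid transporters, ATF4 branch regulators) were chosen from general knowledge with earlier results of these data known. Named genes were the 10 enzymes, ATF4, DDIT3, TRIB3, CBSL, at most 3 called genes of each list and comparison by smallest p, of which a part is printed and 1 gene is not reported here, and the 5 genes most like ASNS. Alternatives were median-of-ratios scaling, TPM without chromosome M, a pseudocount of 0.1, no filter, the libraries of 1 time alone, variance without the trend, a replicate block, leaving out each library, and CBS and CBSL added. Coverage in place of TPM, and scaling together with the block, were added after seeing the data.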

Additional observations from a re-analysis of the deposited data

How the results depend on the processing

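With 2 libraries a group, counts of called enzymes depended on the settings, while no called log2 fold change of an enzyme changed sign under the alternatives run. Single-gene values were followed only where the unadjusted p of the main test was below 0.05. Of these values under the alternatives, 621 kept their side of the threshold, 69 lost a call and 16 gained one. Under 7F8 at 48 h PHGDH, ASNS and PYCR1 were called in each of the 13 alternatives. PHGDH went to -1.48 with coverage in place of TPM, where its values lie closer to the pseudocount, and CBS to -0.87, while a pseudocount of 0.1 gave -2.94 and -2.49.

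For 7F8 against DMSO at 48 h (7 called) the count was 4 after median-of-ratios scaling, 4 without a filter, 3 with the libraries of 48 h alone and 3 to 6 with a library left out. For 6D7 against 7F8 at 48 h (8) it was 5 after scaling, 4 without chromosome M, 4 on coverage, 5 with 48 h alone and 4 to 8 with a library left out. For 5G6 against 7F8 at 48 h (3) it was 1 after scaling, 1 without a filter, 1 on coverage, 0 with 48 h alone and 0 to 2 with a library left out. Leaving out a library gave 0 to 1 for 6D7 against DMSO at 48 h, 0 to 2 for 5G6 against 6D7 at 48 h and 0 to 3 for the 7F8 difference between times. Counts over all 15285 genes tested moved with the settings too. For the filter, the libraries of 48 h alone, chromosome M and coverage they are not given here, and for left-out libraries only in part. The enzyme counts under those settings are therefore not read as particular to the enzymes. After scaling limma called 1137 genes for 7F8 against DMSO at 48 h, against 1297 on TPM. For 6D7 against 7F8 at 48 h it called 73, against 2518 on TPM, and for 5G6 against 7F8 19, against 52. The causes were not tested.

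Replicate numbers are shared between groups, but no label ties them to a common culture or day, and the replicate differences of 28 group pairs correlated from 0.05 to 0.63, and those of compound and DMSO pairs of the same hour from 0.41 to 0.63. With a replicate block 1 enzyme was called for 5G6 against DMSO at 48 h (PYCR1) and 1 for 6D7 against DMSO at 48 h (ASNS). For the 7F8 difference between times the block gave 4 (PHGDH, PSAT1, ASNS and PYCR1), or 1 with scaling and the block together. How many of all genes were called for that 7F8 difference under the block is not given here. These 4 calls are therefore not read as particular to the enzymes. All genes called at 48 h against DMSO numbered 1739 with 5G6, 3806 with 6D7 and 2944 with 7F8 under the block, against 517, 1899 and 1297 without it. Scaling gave 955 for 6D7 against DMSO (466 higher and 489 lower, against 1666 and 233 on TPM). For 7F8 against DMSO scaling split the calls into 558 higher and 579 lower, against 318 and 979 on TPM.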
